A study of Rattus norvegicus with 24 samples.

Results

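The chitinase family was followed here through 3 of its genes, Chia, Chi3l1 and Chit1, in the lungs of rats that inhaled cigarette smoke, Iraqi sand or silica. The genes were chosen by their symbols in the array annotation, and each was represented by 1 probe set, the only one annotated to that symbol alone (1381318_at for Chia, 1392171_at for Chi3l1 and 1391761_at for Chit1). They are 3 of 14217 genes measured with a single-symbol probe set. The lungs came from 24 male Sprague-Dawley rats, labelled as 17 weeks old, in 6 groups of 4, and RNA of the right caudal lobe went onto 1 rat expression array per animal. The air control group received air by both routes, nose-only and whole-body. The Iraqi sand group and the silica group received nose-only air and a chamber exposure set to 1 mg of particles per cubic metre for 18 hours a day, 7 days a week, over 2 weeks. The smoke group received chamber air and, through the nose-only route, cigarette smoke at 0.48 mg per litre (wet total particulate matter). Smoke ran for 3 hours on each of 5 days a week, and its length is given as 5 weeks by the treatment protocol but as 6 weeks by the design text. The 2 combined groups received smoke together with Iraqi sand or with silica. The study's title asks about joint effects of sand and smoke.

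Chitinases are enzymes that cut chitin, the polymer in the walls of fungi and in the shells of mites and insects, and chitinase-like proteins share their fold but lack the cutting activity. Chia encodes acidic mammalian chitinase, which lung epithelium and stomach secrete and which clears inhaled chitin. Chit1 encodes chitotriosidase, an active chitinase that macrophages release. Chi3l1 encodes the chitin-binding lectin known as YKL-40 in humans and BRP-39 in mice, which has no enzyme activity and is made by macrophages, neutrophils and epithelial cells. Type 2 cytokines such as interleukin 4 and interleukin 13 are known inducers of members of this family in lung, among them Chia and Chi3l1.

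In the RefSeq gene order of rat assembly GRCr8, Chit1 and Chi3l1 are direct neighbours among the coding genes of chromosome 13, between Btg2 and Mybph. Chia lies on chromosome 2, between Prdx1l1 and the chitinase-like gene Chi3l3, with Chial1 one gene further on. Chi3l3 and Chial1 had no single-symbol probe set, and whether their transcripts reach the Chia probe set was not tested. The 250 bases before each RefSeq transcription start are shown because the 2 neighbouring genes moved in opposite directions under smoke. All 4 starts lie on the plus strand and the sequences run 5′ to 3′, with capitals marking a match to 1 of the 6 motifs searched.
Chia, chr2:196302437-196302686: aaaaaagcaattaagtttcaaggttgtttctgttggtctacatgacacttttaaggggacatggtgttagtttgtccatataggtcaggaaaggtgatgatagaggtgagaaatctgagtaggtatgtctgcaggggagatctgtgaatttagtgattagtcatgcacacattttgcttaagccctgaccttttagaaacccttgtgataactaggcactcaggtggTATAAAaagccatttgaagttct
Chi3l1, chr13:48193589-48193838: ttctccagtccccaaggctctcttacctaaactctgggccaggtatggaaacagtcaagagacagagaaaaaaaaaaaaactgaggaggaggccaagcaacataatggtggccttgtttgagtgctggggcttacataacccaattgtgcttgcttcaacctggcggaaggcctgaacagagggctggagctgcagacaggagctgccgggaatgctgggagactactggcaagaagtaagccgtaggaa
Chit1, first start, chr13:48117636-48117885: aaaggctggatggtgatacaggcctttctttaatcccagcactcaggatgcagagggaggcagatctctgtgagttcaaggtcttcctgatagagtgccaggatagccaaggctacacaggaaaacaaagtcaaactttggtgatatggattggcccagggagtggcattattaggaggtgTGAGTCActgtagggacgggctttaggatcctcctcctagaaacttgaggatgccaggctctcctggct
Chit1, second start, chr13:48145639-48145888: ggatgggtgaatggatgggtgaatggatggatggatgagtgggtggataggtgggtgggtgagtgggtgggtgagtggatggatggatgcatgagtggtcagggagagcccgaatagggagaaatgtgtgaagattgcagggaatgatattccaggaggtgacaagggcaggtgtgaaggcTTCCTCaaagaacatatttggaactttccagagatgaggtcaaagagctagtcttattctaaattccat

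The capitals in the Chia sequence are a TATA box (TATAAA, plus strand), whose first base lies 23 bases before the start. Of 33469 rat start regions of this length, 12.9% hold that hexamer on either strand. The first Chit1 start carries an AP-1 site (TGANTCA) 69 bases upstream, a motif found in 6.34% of the regions. The second carries the core of a PU.1 site (GAGGAA, on the minus strand), found in 23.3%. The Chi3l1 region holds none of the 6 motifs. On either strand, no member region holds the spacing of a STAT6 site (TTCNNNNGAA, in 6.25% of all regions). The same is true of the antioxidant response element (TGACNNNGC, 10.1%) and the xenobiotic response element core (GCGTG, 25.9%). The AP-1 and antioxidant motifs can overlap. A match describes letters only, and a missing match says only that those letters are not in these windows.

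Levels are given on the log2 scale of the deposited array values, where a step of 1 is a doubling, and the level of 1 gene's probe set is not compared with that of another. Differences come with standard errors. Each adjusted p-value is limma's after Benjamini-Hochberg adjustment across 14217 genes in 1 comparison, and a gene is called when it is under 0.05. Marker genes of heart muscle and of proliferation set 3 rats apart. Rat 104 of the air control group and rat 302 of the Iraqi sand group carried heart muscle transcripts, with the atrial light chain Myl7 at 12.04 and 11.51 against 4.56 to 9.33 in the other 22 rats. Both also had the lowest means of 11 alveolar type 2 markers, 12.39 and 12.54, in a range that reached 12.99 over all rats, so epithelial lung markers were high in every lobe. Rat 604 of the smoke and silica group had the highest Mki67, a proliferation marker, at 8.90 against 5.33 to 7.25. Results that rest on these rats are also given without them.

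Chia rose in all 3 smoke groups when each was compared with the air control group, and the 12 smoke-exposed rats did not overlap the 12 rats without smoke. In the air control group Chia stood at 11.95, 12.18, 9.95 and 11.90 in rats 102, 103, 104 and 105. In the Iraqi sand group it stood at 11.80, 12.50, 12.16 and 12.23, and in the silica group at 12.14, 12.37, 12.39 and 12.24. These 2 particle groups lay close together, and only rat 104, one of the rats with heart transcripts, fell below 11.80. In the smoke group the values were 13.93, 13.60, 13.34 and 13.09. With smoke and sand they were 13.25, 13.59, 12.94 and 13.81, and with smoke and silica 13.50, 13.94, 14.02 and 12.88. The lowest smoke-exposed rat, at 12.88, was above the highest rat in air, at 12.50.

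**Figure D1:**
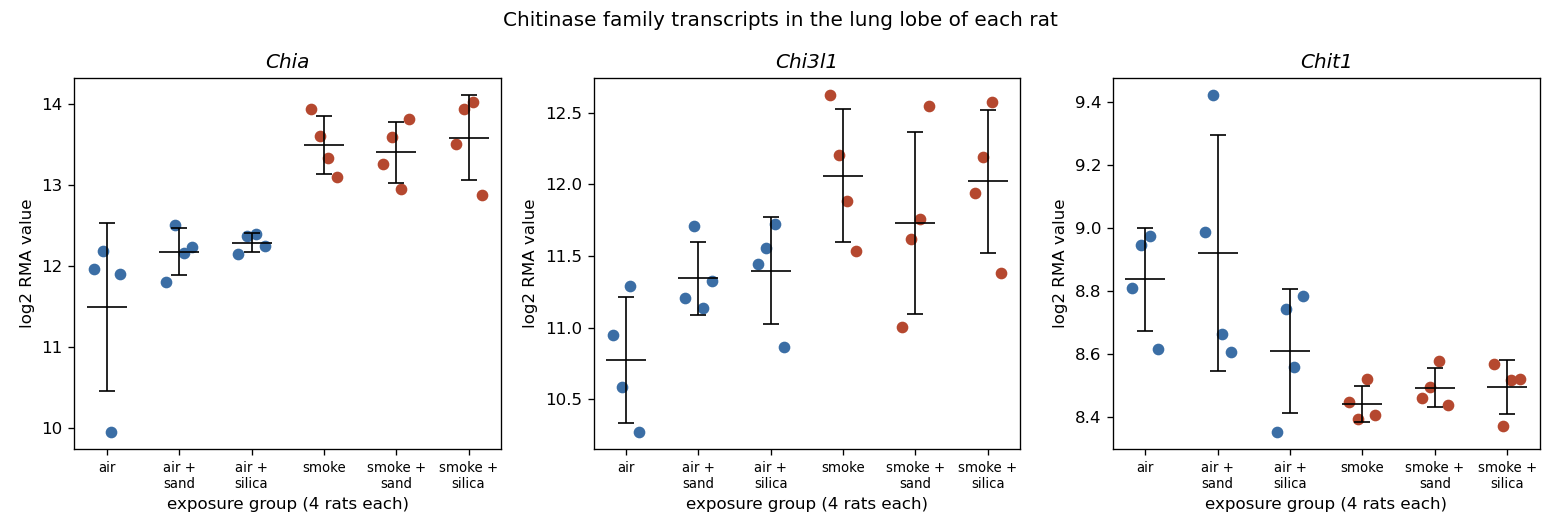
Log2 array values of Chia, Chi3l1 and Chit1 in each rat (points), by exposure group of 4 rats, with blue for air and red for smoke, and black lines for the mean with 1 SD either way. All red Chia points lie above all blue ones, Chi3l1 overlaps between the colours, and the red Chit1 points lie in a narrow band at the low end of the blue ones.

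The group means of Chia were 11.49 ± 1.04 (SD, n = 4) in air, 12.17 ± 0.29 with sand and 12.29 ± 0.12 with silica, against 13.49 ± 0.36 with smoke, 13.40 ± 0.38 with smoke and sand and 13.58 ± 0.52 with smoke and silica. Averaged over the 3 particle conditions, smoke raised Chia by 1.51 ± 0.20 (adjusted p = 1.24e-04), or 2.84-fold with a 95% interval of 2.12 to 3.81. In that comparison 6.39% of all genes were called, and all 3 chitinase genes were among them. Chia had the 10th largest rise of the 14217 genes. Only 0.113% of the genes, 16 in number, kept all smoke-exposed rats apart from all rats in air, and of these Chia had the largest difference. Without rats 104, 302 and 604 the averaged rise was 1.32 ± 0.13 (adjusted p = 3.17e-05).

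Against the air control group, smoke alone raised Chia by 1.99 ± 0.35 (adjusted p = 0.00617), or 3.99-fold, in a comparison that called 0.893% of the genes. Without rat 104 the rise was 1.48, which stayed past the threshold (adjusted p = 0.00199 without rats 104, 302 and 604). Smoke with sand raised it by 1.90 ± 0.35 (adjusted p = 0.0096, 0.978% of genes called), and smoke with silica by 2.09 ± 0.35 (adjusted p = 0.00148, 3.77% called). These 3 comparisons share the air control rats. Fitted on the arrays of the 2 compared groups alone, none of the 3 passed, with adjusted p-values of 0.0839, 0.077 and 0.0509. With RNA integrity as a covariate on 19 arrays, the call for smoke with sand ended as well (adjusted p = 0.0934).

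Within rats that all breathed particles, the same smoke difference in Chia did not pass. It was 1.23 ± 0.35 among sand-exposed rats (adjusted p = 0.0783) and 1.30 ± 0.35 among silica-exposed rats (adjusted p = 0.2). The ranges did not overlap in either comparison, as for 9.01% and 7.15% of all genes, and for 9.94% in the comparison of smoke with air alone. The sand comparison called 1.29% of the genes and the silica comparison 0.00703%, a single gene. Without rat 104, the estimate among sand-exposed rats was unchanged while the adjusted p was 0.0148, since that rat's spread enters the variance shared by the groups.

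Chi3l1, the lectin without enzyme activity, rose with smoke as well, by a smaller amount and with overlap between rats. In the air control group it stood at 10.95, 10.59, 11.29 and 10.27 in rats 102 to 105, and in the smoke group at 12.62, 12.21, 11.89 and 11.54. All 4 rats of the smoke group were above the highest control rat. The sand group had values of 11.21, 11.71, 11.13 and 11.32, and the smoke and sand group 11.01, 11.62, 11.76 and 12.55. The silica group had values of 11.45, 11.56, 11.72 and 10.86, and the smoke and silica group 11.94, 12.19, 12.57 and 11.38. The ranges overlapped in both particle settings, and with sand the lowest rat of all 8 was a smoke-exposed one, rat 402.

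The means of Chi3l1 were 10.77 ± 0.44 (SD, n = 4) in air, 11.34 ± 0.26 with sand, 11.40 ± 0.37 with silica, 12.06 ± 0.46 with smoke, 11.73 ± 0.64 with smoke and sand and 12.02 ± 0.50 with smoke and silica. Averaged over particle conditions, smoke raised Chi3l1 by 0.77 ± 0.17 (adjusted p = 0.0115), or 1.70-fold with a 95% interval of 1.32 to 2.19, and by 0.80 without rats 104, 302 and 604. Its rise ranked 58th among the 14217 genes. Against the air control group, smoke alone raised it by 1.29 ± 0.30 (adjusted p = 0.0415). That call ended in 14 of the 24 fits that each left out 1 rat, with adjusted p-values up to 0.206. The rats were 102, 103, 105, 201, 203, 204, 301, 305, 404, 405, 501, 502, 602 and 603.

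Smoke with silica raised Chi3l1 by 1.25 ± 0.30 (adjusted p = 0.023), a call that ended without rat 103, 105, 603 or 604, with adjusted p-values of 0.0721, 0.0756, 0.0649 and 0.106. With RNA integrity as a covariate on 19 arrays, the calls of Chi3l1 for smoke alone (adjusted p = 0.0767) and for smoke with silica (adjusted p = 0.0614) ended, and the arrays of air and smoke alone gave an adjusted p of 0.0653 for the former. The differences for smoke with sand against air (0.96 ± 0.30, adjusted p = 0.159), smoke among sand-exposed rats (0.39 ± 0.30, adjusted p = 0.453) and smoke among silica-exposed rats (0.63 ± 0.30, adjusted p = 0.615) did not pass. The smoke difference of Chi3l1 was 0.90 ± 0.43 smaller with sand than without it, which had an unadjusted p of 0.0475 and an adjusted p of 0.563 in limma.

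Chit1, the macrophage chitinase and the direct neighbour of Chi3l1, fell with smoke. In rats 102 to 105 of the air control group it stood at 8.81, 8.95, 8.97 and 8.62. The sand group had values of 8.99, 9.42, 8.67 and 8.61, and the silica group 8.35, 8.74, 8.56 and 8.79. The 9.42 of rat 302, which also carried heart transcripts, was the highest of all rats. The smoke group had values of 8.45, 8.39, 8.52 and 8.41, the smoke and sand group 8.46, 8.50, 8.58 and 8.44, and the smoke and silica group 8.57, 8.37, 8.52 and 8.52. All 12 smoke-exposed rats lay between 8.37 and 8.58, and among the rats in air only 2, both in the silica group, lay at or below 8.58.

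Averaged over particle conditions, smoke lowered Chit1 by a log2 difference of -0.31 ± 0.076 (adjusted p = 0.0167), which is 0.81-fold with a 95% interval of 0.72 to 0.90. Without rats 104, 302 and 604 the difference was -0.24 ± 0.060 (adjusted p = 0.0183). On the 19 arrays with an RNA integrity number the call ended, both with that number as a covariate (-0.32, adjusted p = 0.125) and without it (-0.31, adjusted p = 0.119). No single-setting difference of Chit1 passed with all rats, and without rat 302 those of smoke alone (-0.39, adjusted p = 0.0341), smoke with sand (-0.34, adjusted p = 0.0464) and smoke with silica (-0.34, adjusted p = 0.0229) against air did. Smoke alone against air gave -0.39 ± 0.13 (adjusted p = 0.22), smoke among sand-exposed rats -0.43 ± 0.13 (adjusted p = 0.0906, and -0.26 without rat 302) and smoke among silica-exposed rats -0.12 ± 0.13 (adjusted p = 0.903). The means were 8.84 ± 0.16 (SD, n = 4) in air, 8.92 ± 0.37 with sand and 8.61 ± 0.20 with silica, against 8.44 ± 0.06, 8.49 ± 0.06 and 8.49 ± 0.09 in the 3 smoke groups. The SD within groups, pooled, was 0.262 in air and 0.069 in smoke for Chit1, 3.8 times larger in air, against 0.626 and 0.427 for Chia and 0.365 and 0.538 for Chi3l1. Part of that ratio for Chit1 came from rat 302, which lay 0.50 above the mean of its group. The air control and silica groups, which do not hold that rat, had SDs of 0.16 and 0.20.

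**Figure D2:**
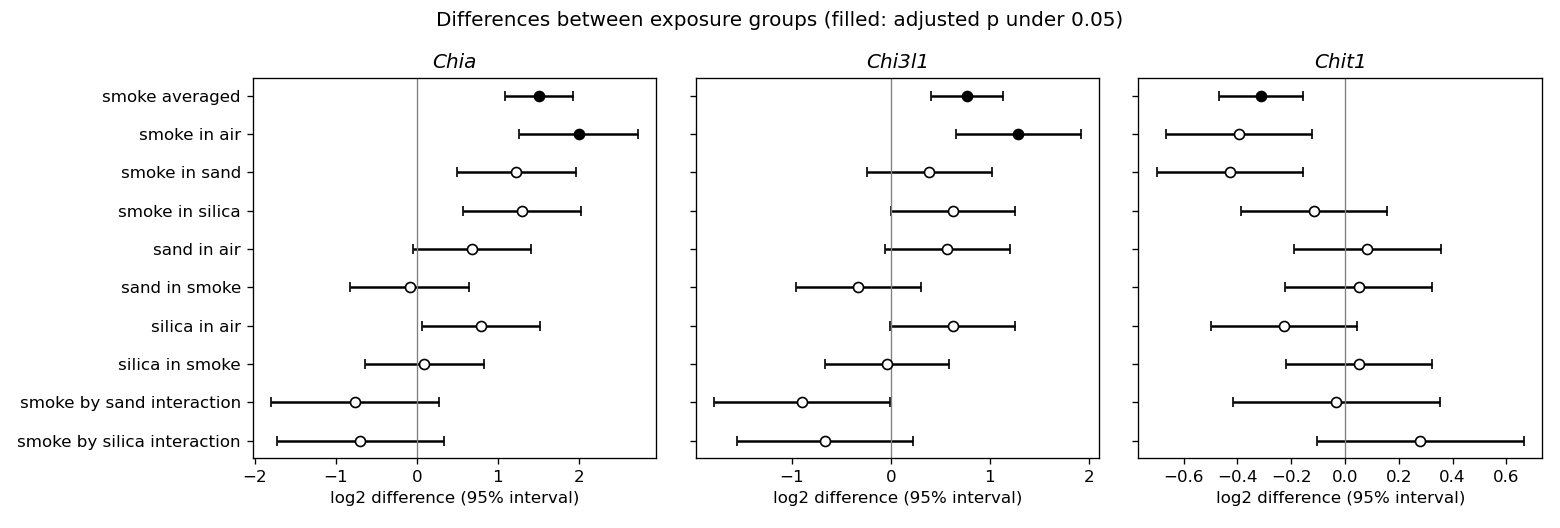
Log2 differences between exposure groups from the limma fit on all 24 rats (points) with 95% intervals, for Chia, Chi3l1 and Chit1, with filled points where the adjusted p was under 0.05. The averaged smoke difference is filled for all 3 genes, above 0 for Chia and Chi3l1 and below 0 for Chit1, and no sand, silica or interaction point is filled.

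Neither particle changed a chitinase gene past the threshold. Sand in air gave 0.68 ± 0.35 for Chia, 0.57 ± 0.30 for Chi3l1 and 0.083 ± 0.13 for Chit1 (-0.084 without rat 302), with adjusted p-values from 0.502 to 0.805. Silica in air gave 0.79 ± 0.35, 0.62 ± 0.30 and -0.23 ± 0.13, with adjusted p-values from 0.97 to 0.999. Both comparisons share the control group with rat 104, in which Chia was lowest, and without that rat the difference in Chia was 0.16 for sand and 0.28 for silica. Of the lists of related genes, 1 member was called for silica in air, the growth factor Csf2 at 0.66 ± 0.12 (adjusted p = 0.0148). Of all genes, 0.0281% were called for sand in air and 0.141% for silica in air. Within smoke, sand gave -0.090 ± 0.35 for Chia, -0.33 ± 0.30 for Chi3l1 and 0.051 ± 0.13 for Chit1. Silica within smoke gave 0.093 ± 0.35, -0.041 ± 0.30 and 0.052 ± 0.13, and each of these 2 comparisons called 0.0141% of the genes. The 95% interval for silica within smoke ran from -0.64 to 0.82 for Chia and from -0.67 to 0.59 for Chi3l1. Changes of either sign within those bounds were therefore not excluded with 4 rats a group.

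Averaged over air and smoke, sand gave 0.29 ± 0.25 for Chia, 0.12 ± 0.21 for Chi3l1 and 0.067 ± 0.093 for Chit1, in a comparison where limma called 0% of the genes and 742 had an unadjusted p under 0.05. Silica averaged gave 0.44 ± 0.25, 0.29 ± 0.21 and -0.088 ± 0.093, with 0.345% of genes called. Sand set against silica gave -0.15 ± 0.25, -0.17 ± 0.21 and 0.15 ± 0.093, with 0.12% called. The smoke difference of Chia was 0.77 ± 0.50 smaller with sand (adjusted p = 0.657) and 0.70 ± 0.50 smaller with silica (adjusted p = 1) than without particles. Without rat 104 these differences of Chia were 0.036 for averaged sand, 0.18 for averaged silica, and -0.25 and -0.18 for the interactions with sand and silica. The interaction with sand called 0.00703% of the genes and that with silica 0%, with 318 genes at an unadjusted p under 0.05 by limma in the silica test.

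Ordered by their observed means, the groups of Chia ran from air through sand, silica, smoke with sand and smoke alone to smoke with silica. Of its 5 neighbouring steps, only that from silica to smoke with sand, 1.11 with a 95% interval of 0.38 to 1.84, excluded 0, and it did not pass over all genes (adjusted p = 0.602). The order of Chi3l1 was air, sand, silica, smoke with sand, smoke with silica and smoke alone, and no neighbouring step excluded 0. Chit1 ran the other way, from smoke alone, smoke with sand and smoke with silica up to silica, air and sand, again with no neighbouring step that excluded 0.

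Chia and Chi3l1 ranked the rats of the smoke group and of the smoke and silica group alike, although they lie on different chromosomes. Within the smoke group both were highest in rat 201, followed by 203, 204 and 205, and within the smoke and silica group both ran from rat 604 through 603 and 602 to 605. With smoke and sand, rat 406 was highest in both, and the other 3 rats differed in order. Taken as deviations from the group means over the 12 smoke-exposed rats, the 2 genes had a Pearson correlation of 0.803 (exact permutation p = 0.00564, adjusted p = 0.0338 over 6 relations) and a rank correlation within groups of 0.8 (exact permutation p = 0.014, adjusted p = 0.084). The tests were two-sided and reassigned rats within groups in all 13824 ways. Without rats 605 and 405, which lay farthest from the middle in Chia, the Pearson correlation was 0.896. The shared order was not particular to this pair. The macrophage elastase Mmp12 ordered the rats as Chia did in all 3 smoke groups. In the smoke group it stood at 9.61, 8.43, 8.22 and 7.33 in rats 201, 203, 204 and 205. How many of all genes share such an order was not tested.

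**Figure D3:**
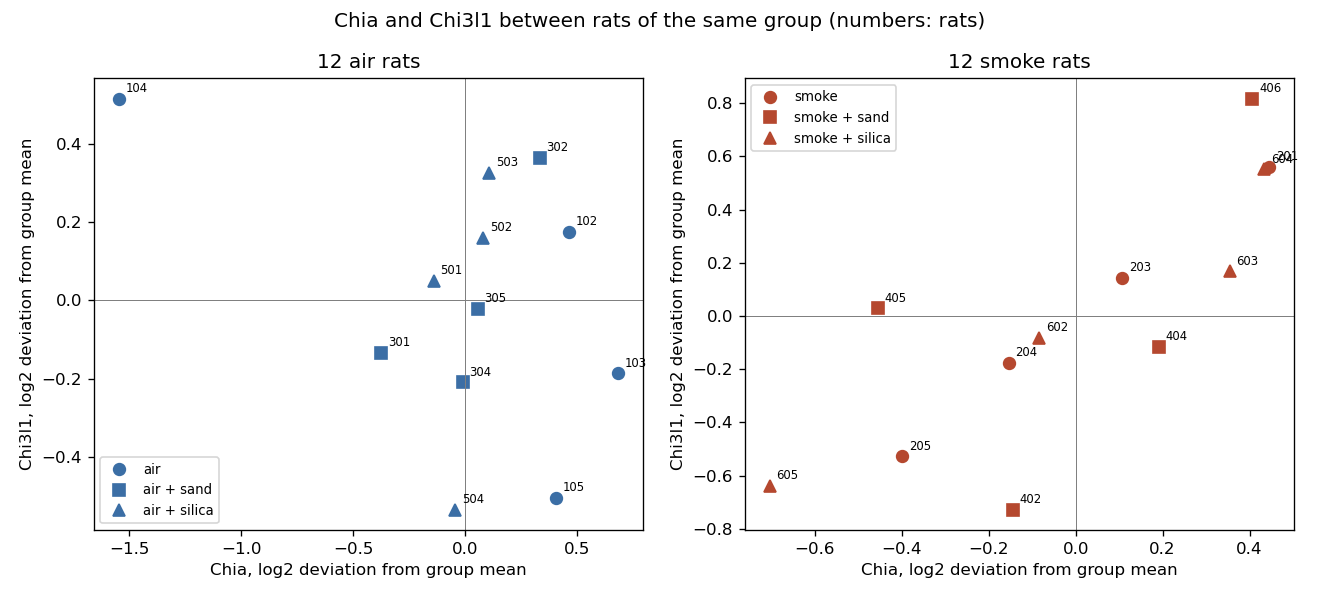
Deviation of Chia (x axis) and Chi3l1 (y axis) from the mean of the rat's own group, in log2 units, for 12 rats in air (left) and 12 in smoke (right), with symbols for the particle and numbers for the rats. In smoke the points run from low in both genes (rat 605) to high in both (rats 201, 406 and 604), and in air rat 104 stands alone at the left.

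In the 12 rats in air the Pearson correlation was -0.393 (exact permutation p = 0.464), and it became 0.513 without rats 104 and 103, so its sign rested on those rats. Whether the correlation differed between air and smoke was not tested. Chit1 had no relation past the threshold with either gene in air or in smoke, with exact permutation p-values from 0.252 to 0.848. These relations were examined after the values had been seen. Whole-lobe RNA does not separate a change in the number of cells that make a transcript from a change of transcript per cell, here or in any comparison above.

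Other chitinase-like and chitin-handling genes were read from the same limma fit. Of 19 listed genes 11 were measured, and in the averaged smoke comparison 1 rose and none fell, beside 6.39% of all genes called, with a median difference of 0.073 against -0.021 over all genes. The gene that rose was Hexa, a lysosomal hexosaminidase subunit, by 0.27 ± 0.05 (adjusted p = 0.00252), with a median of 10.41 in air and 10.72 in smoke. Hexosaminidase removes single sugars from short chains of the kind that chitinases release. The lysosomal mannosidase Manba (0.27 ± 0.09, adjusted p = 0.0603), the glucan receptor Clec7a (0.32 ± 0.14, adjusted p = 0.146) and the glucosamine-phosphate deaminase Gnpda1 (0.12 ± 0.05, adjusted p = 0.145) did not pass. Smoke with silica against air called 3 of the 11, Hexa, Manba and Gnpda1, all upward, beside 3.77% of all genes. Manba is counted because it was listed, but as a mannosidase it acts on mannose and not on chitin.

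Receptors and binding partners of Chi3l1 went in both directions. Of 10 measured genes, 2 rose and 2 fell in the averaged smoke comparison, beside 6.39% of all genes, with a median of -0.024. Lgals3, a galectin of macrophages that binds the protein, rose by 0.54 ± 0.06 (adjusted p = 2.08e-05), with values from 12.52 to 13.37 in air and 13.17 to 13.68 in smoke. Cd44, a hyaluronan receptor, rose by 0.21 ± 0.06 (adjusted p = 0.0417). Ager, the receptor for advanced glycation end products and a marker of alveolar type 1 cells, differed by -0.20 ± 0.05 (adjusted p = 0.012), and the integrin subunit Itgb3 by -0.31 ± 0.09 (adjusted p = 0.0442). The receptor chain Il13ra2 (-0.094 ± 0.078, adjusted p = 0.476) and its partner Tmem219 (0.043 ± 0.063, adjusted p = 0.713) did not pass.

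Of the type 2 cytokine axis and its target genes, 28 of 34 listed were measured, and 2 rose and 1 fell, beside 6.39% of all genes, with a median of -0.015. The cytokines Il13 (-0.037 ± 0.056, adjusted p = 0.718) and Il4 (-0.014 ± 0.048, adjusted p = 0.884) stayed at 5.43 to 5.96 and at 5.29 to 5.73 over all 24 rats. Both lay below the array medians of 7.26 to 7.32, and flat values at such low signal cannot show whether these cytokines changed. Arg1, the arginine-degrading enzyme of alternatively activated macrophages, rose by 0.96 ± 0.12 (adjusted p = 7.22e-05). Its values were 7.79, 8.02, 8.15 and 7.82 in air and 9.69, 9.35, 9.02 and 9.14 with smoke. With sand alone Arg1 stood at 8.41 to 9.04 and with silica alone at 8.28 to 9.32, above the air control rats and overlapping the smoke group. Alox15, a lipoxygenase, rose by 1.23 ± 0.28 (adjusted p = 0.0115), with overlap between rats. It stood at 9.02, 10.91, 8.96 and 8.58 with smoke, against 7.94 to 8.94 in the air control group. With smoke and silica it ran from 9.03 to 11.10, against 7.97 to 8.24 with silica alone. The eosinophil chemokine Ccl24 differed by -0.30 ± 0.08 (adjusted p = 0.0277). Its signal was also below the array medians, at 5.46 to 6.26 in air and 5.25 to 5.58 in smoke.

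Unlike Chia, Retnla, a secreted type 2 target of lung epithelium and macrophages, did not separate smoke from air (0.51 ± 0.35, adjusted p = 0.388). It stood at 9.58, 9.93, 9.37 and 11.17 in the air control group and at 10.60 to 13.81 in the smoke-exposed rats, but also at 10.79 to 13.67 in the rats with sand or silica alone. The goblet cell protein Clca1 had the largest averaged difference of the list, 1.97 ± 0.62, without passing (adjusted p = 0.0586), and ranged from 4.74 to 10.41 in air. The 14 measured genes of the acute inflammatory list, known inducers of Chi3l1 and Chit1, held no call in the averaged comparison, which called 6.39% of all genes. Among them, the macrophage growth factor Csf2 (0.21 ± 0.07, adjusted p = 0.064) and the cytokine Il1b (0.54 ± 0.21, adjusted p = 0.114) had the smallest p-values. Part of the list was of low signal. Il6 had means of 4.06 in the 12 rats in air and 4.09 in the 12 smoke-exposed rats, and Ifng 3.87 and 3.81. Both lay below the array medians, and flat values there cannot show whether these cytokines changed. For smoke alone against air, 1 of the 14 was called, Csf2, at 0.62 ± 0.12 (adjusted p = 0.00843), beside 0.893% of all genes.

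**Figure D4:**
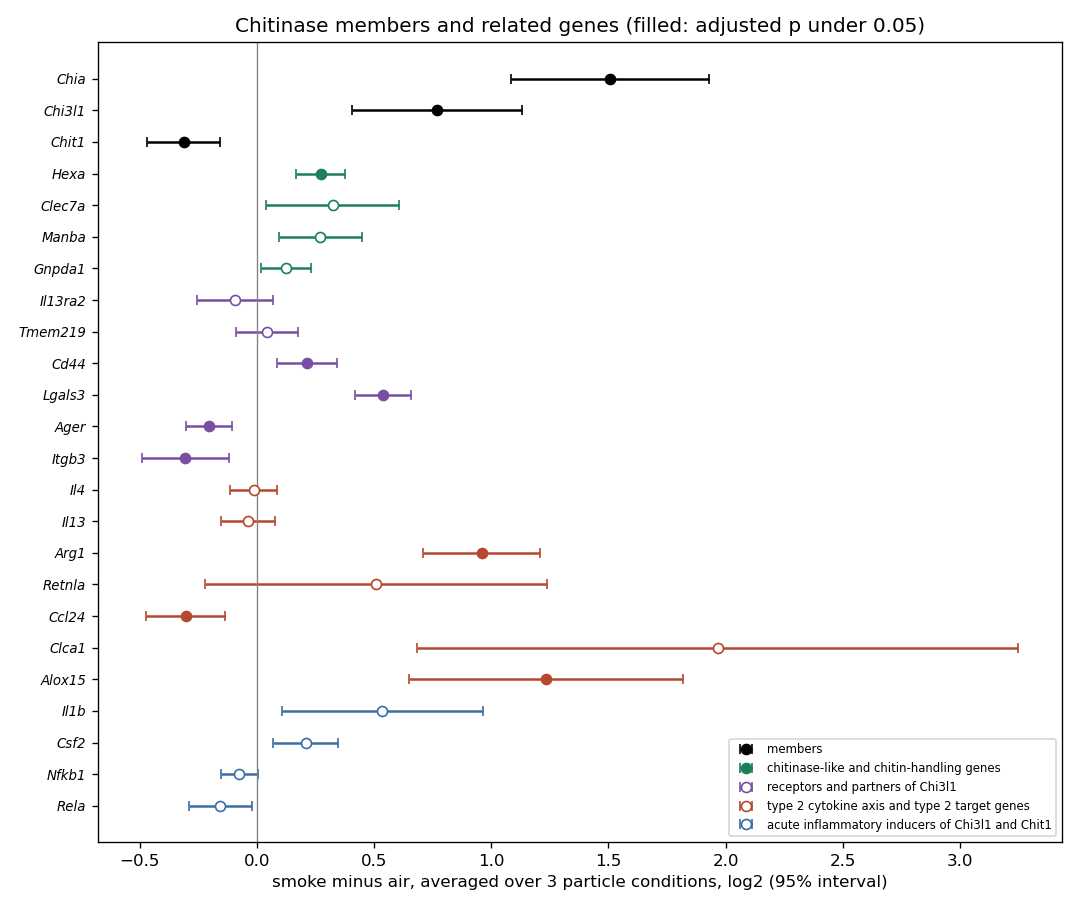
Averaged smoke minus air difference on the log2 scale with 95% intervals for the 3 chitinase genes (black) and for named genes of 4 related lists, with filled points where the adjusted p was under 0.05. Chia lies farther right than every called gene of the lists, Il4 and Il13, both of low signal, lie at 0 within their intervals, and Clca1 has the widest interval.

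Markers of other cell types moved beside the chitinase genes in the averaged smoke comparison, whose share of 6.39% of all genes called stands beside each of the counts that follow. Of 15 alveolar macrophage and phagocyte markers 8 rose and 1 fell with smoke, with a median difference of 0.54, and the mean of the list ran from 9.25 to 9.82 in the rats in air and from 9.74 to 10.50 in the smoke-exposed rats. Among them Gpnmb rose by 1.12 ± 0.11 and Cd68 by 0.94 ± 0.11, while the macrophage marker Adgre1 differed by -0.60 ± 0.09. Neutrophil markers rose in 2 of 9 (Cxcr1 by 1.00 ± 0.13 and S100a9 by 1.35 ± 0.23), with list means of 7.16 to 7.65 in air and 7.39 to 9.35 in smoke. The 9.35 was a rat of the smoke group, not among the 3 rats left out above. The smoke and sand group reached 7.82 and the smoke and silica group 7.77. Club and secretory airway markers rose in 3 of 15 and fell in 1, with list means of 8.83 to 10.23 in air and 8.94 to 10.68 in smoke. The 1 that fell was Cyp4b1, with a mean of 12.60 in the 12 rats in air and 11.88 in the 12 smoke-exposed rats. The 3 that rose were the mucin Muc5b, by 1.99 ± 0.50 (adjusted p = 0.0215), the water channel Aqp3, by 1.95 ± 0.38 (adjusted p = 0.00381), and Agr2, which helps to fold mucins, by 1.66 ± 0.37 (adjusted p = 0.0105). Their estimates lay above the 1.51 of Chia, a contrast that was not tested, and their ranges overlapped between smoke and air. Within the smoke group, rats 201 and 203 had Muc5b at 8.69 and 13.11 and Agr2 at 10.03 and 12.47. The airway gene Bpifa1 stood at 6.89 and 11.73 in the same rats. The part of airway content in these rises was not tested. T and NK cell markers fell in 6 of 13, with list means of 7.94 to 8.74 in air and 7.03 to 8.44 in smoke.

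Alveolar type 2 markers rose in 1 of 11 (Cd36) and fell in 1 (Lpcat1), ciliated markers rose in 1 of 8 (Dynlrb2), and no basal, eosinophil and mast cell, heart or stomach and cartilage marker was called in the averaged smoke comparison. The 7 stomach and cartilage genes, sites where the family is also known to be made, had means of 5.21 to 5.59 in every rat. The part of these cell types in the chitinase differences was not tested. No array value is a true 0, so absence of a marker is not claimed.

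The genes most like each member over the 24 rats differed between the 3 members, and all shared the same arrays and the same smoke contrast. For Chia the highest Pearson correlations of the values were with Hacl1, a peroxisomal lyase (0.883), the lysosomal tetraspanin Cd63 (0.856), the retinol dehydrogenase Rdh10 (0.851), the sodium pump subunit Atp1b1 (0.845) and the mitochondrial nucleotide carrier Slc25a5 (0.825). For Chi3l1 they were the ion channel Trpv2 (0.862), the macrophage elastase Mmp12 (0.849), Qsox1 (0.841), Litaf (0.827) and, between these 2, Myo7a. For Chit1 they were Hr (0.898), Ltbp3 (0.895), Nup210 (0.885), Selenom (0.884) and Ctdp1 (0.88), all of them lower with smoke, with averaged differences from -0.22 for Ltbp3 to -0.46 for Nup210.

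With the group means removed, other genes came first. The closest to Chia were the neutrophil chemokine Cxcl3 (0.793), the potassium channel Kcnk1 (0.775), the lysosomal protease Ctsh (0.768), Pter (0.762) and Chmp1b (0.758), none of them called with smoke. Without rats 104, 302 and 604 the value for Cxcl3 was 0.754 and that for Pter 0.32. Closest to Chi3l1 were Sorl1 (0.814), Mapkapk3 (0.81), Donson (0.778), the polyamine enzyme Odc1 (0.766) and Pitpna (0.766). Closest to Chit1 were Ppdpf (0.9), Xylt2 (0.9), Paxx (0.888), Cerk (0.878) and Smyd3 (0.878). These are the top 5 of 14217 genes in each case, picked for their likeness, and are given as a description.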

How the data were processed

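Lung RNA of 24 rats was measured on 1 array each. The deposited log2 values were made by the authors with RMA, per the submitters' processing notes. Its version is not given in the sources used here. RMA brings all arrays to 1 distribution and compresses changes of dim probe sets. Array medians were 7.26 to 7.32, and RNA integrity numbers, known for 19 arrays, 8.1 to 9.8. Precision is limited by the number of arrays.

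Of 31099 probe sets, 57 were controls, and 20826 had 1 symbol in the platform annotation, 436 several and 9780 none. Each gene was represented by its brightest single-symbol probe set. Using limma 3.58.1 under R 4.3.3, lmFit and eBayes estimated 6 group means over all arrays, with 18 residual degrees of freedom and Benjamini-Hochberg adjustment over 14217 genes in each of 15 comparisons. The script was tested on simulated data. Alternatives were trended and robust shrinkage, averaging the probe sets of a gene, a level filter, only the compared arrays, array weights, recentring, RNA integrity as covariate and each rat left out. Leaving out rats 104, 302 and 604 together, and the 19 arrays without the covariate, are settings added after the data had been seen.

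Groups were taken from the sample labels, and rats are separate animals. The members, lists and tests were chosen with earlier results of these data known. Named were the members, up to 4 genes per list by moderated t for averaged smoke, with Il13, Il4, Il13ra2, Tmem219, Arg1, Retnla and Ccl24, and the 5 genes most like each member. Promoter sequences are from the RefSeq table of assembly GRCr8, where all 3 members matched. No genome build is named in the array files.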

Additional observations from a re-analysis of the deposited data

Results flagged for a closer look

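In the air control group, Chia in rat 104 stood at 9.947, and the nearest of the other 3 rats was at 11.90. The gap was 0.875 of the range of the group, above Dixon's 95% critical value for 4 samples. Of 18 sets of 4 rats examined, for 3 genes in 6 groups, this was the only one marked, and chance marks about 1 in 20. Rat 104 had the highest Myl7 of all rats (12.04), a Bpifa1 of 11.77 against 6.93 to 7.03 in its group mates, and the lowest mean of the alveolar type 2 markers (12.39). Chi3l1, at 11.29, and Chit1, at 8.97, were the highest of the control group in the same rat. Rat 302 had a Myl7 of 11.51 and a Bpifa1 of 12.63, and its Chia, at 12.50, was the highest of the 12 rats in air. Bpifa1 was not high in these rats alone. It ran from 6.89 to 12.13 in the 12 smoke-exposed rats, with 11.73, 11.67 and 12.13 in rats 203, 204 and 405. The part of the heart and airway transcripts in these values was not tested. Without rat 104 the rise of Chia with smoke alone was 1.48 in place of 1.99.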

How the results depend on the processing

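Over 45 results and 9 settings other than leaving out single rats, 375 of 402 values kept their direction and their side of the threshold. That held for all 45 under trended and robust shrinkage, averaged probe sets, the level filter and recentring. Fitted on the compared arrays alone, which does not apply to averaged smoke, 4 calls ended, with differences unchanged: Chia with smoke alone (1.99), smoke and sand (1.90) and smoke and silica (2.09), and Chi3l1 with smoke alone (1.29). With RNA integrity as a covariate, calls ended for Chi3l1 with smoke alone (1.53, adjusted p = 0.0767) and smoke and silica (1.47, 0.0614), Chia with smoke and sand (1.37, 0.0934) and averaged smoke in Chit1 (-0.32, 0.125). The same 19 arrays without the covariate, which lack rat 104 among others, ended the call of Chi3l1 with smoke alone (1.52), of Chia with smoke and sand (1.25) and of averaged smoke in Chit1 (-0.31), and turned Chia under averaged sand to -0.057.

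Array weights brought 6 results past the threshold: Chit1 with smoke alone (-0.36), smoke and sand (-0.31) and smoke and silica (-0.36), Chia with smoke among sand-exposed (1.24) and silica-exposed rats (1.35), and Chi3l1 with smoke and sand (0.93). They turned Chit1 under sand in air (-0.079), averaged sand (-0.016) and the sand interaction (0.13), and Chi3l1 under silica in smoke (0.011). Without rats 104, 302 and 604, Chia with smoke among sand-exposed rats passed (1.34), and Chit1 under sand in air (-0.038), its sand interaction (0.089), and Chia under silica in smoke (-0.051) and averaged sand (-0.019) turned sign. Array weights called 2651 genes for averaged smoke in place of 908, the covariate 210 and its 19 arrays without it 246. Apart from the direct causes of fewer arrays or tests, the cause was not tested.

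With each rat left out in turn, averaged smoke stayed called for all 3 genes. Results whose call or sign changed ranged as follows. Chia ran from 1.09 to 1.38 for smoke among sand-exposed rats, from -0.23 to 0.061 for sand in smoke and from -0.051 to 0.33 for silica in smoke. Chi3l1 ran from 1.10 to 1.46 for smoke alone, from 1.06 to 1.46 for smoke and silica, from -0.22 to 0.17 for silica in smoke and from -0.016 to 0.24 for averaged sand. Chit1 ran from -0.47 to -0.35 for smoke alone, from -0.53 to -0.26 for smoke among sand-exposed rats, from -0.42 to -0.30 for smoke and sand and from -0.42 to -0.30 for smoke and silica. It ran from -0.084 to 0.19 for sand in air, from -0.14 to 0.13 for the sand interaction and from -0.017 to 0.12 for averaged sand. No paired analysis was possible because each rat number occurs once.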

Other observations

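Besides Chia, 15 genes kept the 12 smoke-exposed rats apart from the 12 rats in air, and they were named after their values were seen. Higher with smoke were the clock repressors Bhlhe41 (averaged difference 0.81 ± 0.09) and Cry1 (0.75 ± 0.09), the myeloid lectin Cd33 (0.65 ± 0.08), the lysosomal protease Ctsd (0.59 ± 0.06), the thiopurine methyltransferase Tpmt (0.51 ± 0.07), Slx4ip (0.44 ± 0.10), the kinase Ripk2 (0.32 ± 0.06), the intermediate filament Vim (0.29 ± 0.04) and RGD1359108 (0.22 ± 0.03). Lower were the adrenergic receptor Adra1b (-0.66 ± 0.09), the erythroid membrane protein Dmtn (-0.44 ± 0.07), the kinase Prkcd (-0.43 ± 0.06), the calcium-binding protein S100a1 (-0.35 ± 0.08), the growth factor-binding protein Igfbp7 (-0.25 ± 0.04) and Triobp (-0.18 ± 0.04). All 15 had an adjusted p under 0.05 in limma.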
